A study of Mus musculus with 12 samples.

Results

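The genes described here are those of Wnt signalling, namely its ligands, receptors, secreted inhibitors and agonists, intracellular core and target genes, measured in mouse brown adipose tissue 4 days after an antibody that activates FGFR1. The list held 45 genes chosen by name and role, of which 44 were measured, among 18193 genes in all. Together they had 101 probe sets, the groups of probes that each report 1 stretch of a transcript. Tcf7 was not analysed here. The list was drawn up with results of this same comparison known, so the group differences are a description and nothing is read from how many members were called.

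All 12 animals were male ob/ob mice, which lack functional leptin and are obese, aged 3 months and fed normal chow. The anti-FGFR1 group of 6 mice received 1 mg/kg of the agonistic antibody once into the peritoneum; FGFR1 is a receptor for fibroblast growth factors. The control group of 6 mice was pair-fed, so that food intake was matched, and received control IgG. Brown fat, the heat-producing fat, was taken on day 4, with 1 array per mouse. Values are log2 expression after RMA, a normalization that summarises the probes of a probe set, so a difference of 1 is a 2-fold change.

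Wnt proteins are secreted, lipid-modified ligands that bind Frizzled receptors together with the co-receptors Lrp5 or Lrp6. In the canonical branch this keeps beta-catenin from being destroyed by a complex of Axin, Apc and Gsk3b, and beta-catenin then acts with TCF/LEF transcription factors on target genes such as Axin2. Other branches, served by ligands such as Wnt5a and Wnt11, act on cell polarity and calcium. In fat, canonical Wnt signalling is known to restrain the formation of adipocytes from their precursors.

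Axin2, a canonical target and feedback inhibitor, the ligand Wnt11, the receptor Fzd8 and the secreted inhibitor Sfrp2 were lower after anti-FGFR1. These 4 of 44 members passed an adjusted p under 0.05 in limma (a linear model fitted over all genes), 0 members were higher, and 9 had an unadjusted p under 0.05. The called share was 9.09%, beside 8.03% of all genes called in either direction, 5.09% called lower and 2.94% called higher. At an unadjusted p under 0.05 the shares were 20.5% of the members and 22.4% of all genes. Their median log2 difference was 0.0030 and that of all genes 0.01, with 22 members on each side of 0 and 30 of the 44 closer to 0 than 0.1. After another quantile normalization, which called 4.18% of all genes lower, the members called were Axin2, Wnt11 and Sfrp2, all lower.

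**Figure D1:**
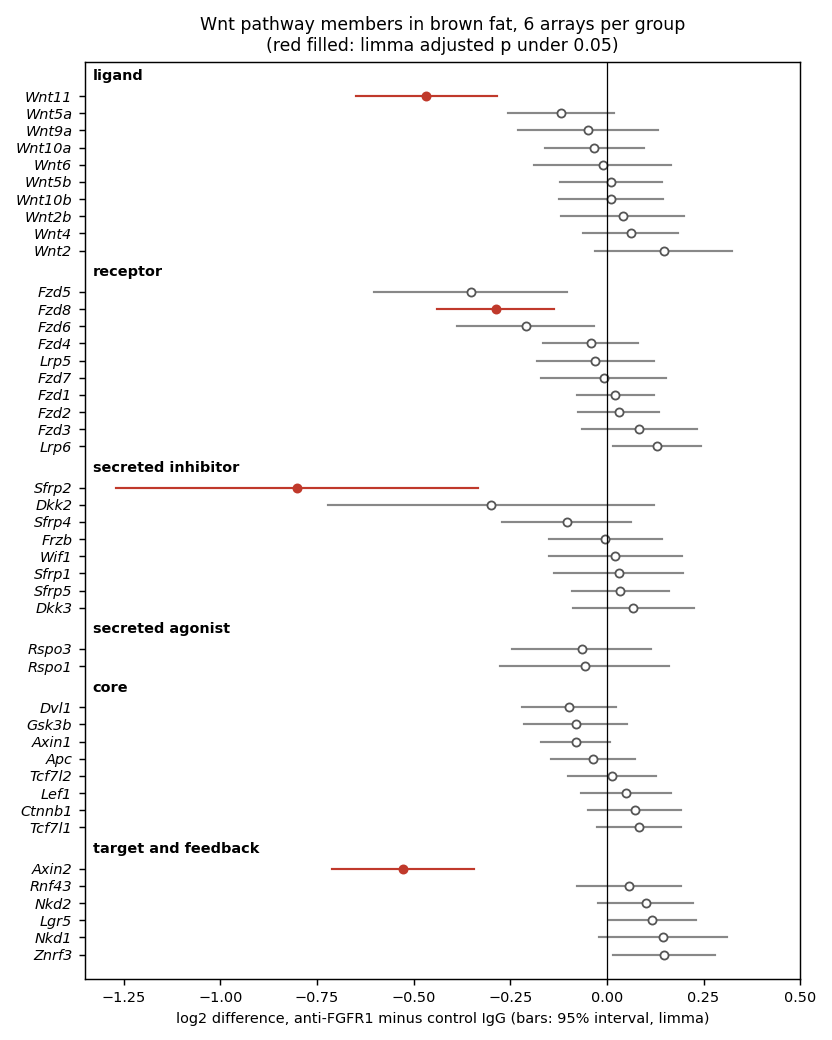
The log2 difference of each of the 44 measured members (horizontal axis, anti-FGFR1 minus control IgG, 6 arrays per group) with its 95% interval from limma, by class. The 4 filled red points, Wnt11, Fzd8, Sfrp2 and Axin2, have an adjusted p under 0.05 and lie below 0.

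Each gene was read from its brightest probe set. Over all 101 probe sets of the members, 9 were lower and 0 higher by limma with adjustment over 45037 probe sets, of which 5.32% were called. They belonged to 6 genes: Axin2 with 2, Sfrp1 with 3, and Wnt11, Fzd8, Sfrp2 and Gsk3b with 1 each. Sfrp1 and Gsk3b were thus called on probe sets other than their brightest.

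Promoter windows of the called members that have an entry in the RefSeq promoter table (GRCm38.p6, 250 bases before to 50 after a transcript's start) are shown because these members were lower together and TCF/LEF factors bind words that begin with CTTTG. The word CTTTGAT was searched on both strands, and so was CTTTGAA as a second word, with CTTTGTT as a further one and then CTTTGTA; letters that match are in capitals. The windows are chr11:108920099-108920398 for Axin2, chr7:98834862-98835161 for the first start of Wnt11 and chr3:83766071-83766370 for Sfrp2, all on the plus strand.
Axin2: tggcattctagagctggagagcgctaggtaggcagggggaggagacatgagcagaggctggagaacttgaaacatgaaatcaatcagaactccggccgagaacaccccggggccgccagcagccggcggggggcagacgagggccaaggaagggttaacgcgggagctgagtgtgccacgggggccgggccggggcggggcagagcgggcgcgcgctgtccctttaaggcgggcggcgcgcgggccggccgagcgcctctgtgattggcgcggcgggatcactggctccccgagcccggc
Wnt11: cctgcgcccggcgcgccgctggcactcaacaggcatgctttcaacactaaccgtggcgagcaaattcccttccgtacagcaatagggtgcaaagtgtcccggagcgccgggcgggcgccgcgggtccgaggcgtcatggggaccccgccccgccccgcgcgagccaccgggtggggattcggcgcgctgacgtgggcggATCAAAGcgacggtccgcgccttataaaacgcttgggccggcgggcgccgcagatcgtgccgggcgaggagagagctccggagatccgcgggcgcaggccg
Sfrp2: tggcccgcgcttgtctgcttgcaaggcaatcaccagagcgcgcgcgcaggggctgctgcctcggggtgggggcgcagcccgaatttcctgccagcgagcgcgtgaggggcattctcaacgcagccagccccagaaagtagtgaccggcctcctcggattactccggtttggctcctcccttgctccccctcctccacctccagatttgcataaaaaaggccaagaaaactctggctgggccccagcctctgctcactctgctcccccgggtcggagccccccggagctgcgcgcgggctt

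The Wnt11 window held 1 match, CTTTGAT on the minus strand, beginning 51 bases before the start. The window of its second start and those of Axin2 and Sfrp2 held 0. Sequence outside the windows was not searched, so a count of 0 does not speak to sites elsewhere in a gene. Of the 29 members with an entry, 5 had a match (17.2%, beside 18.9% of all 27025 genes in the table): Wnt5b, Wnt11, Fzd7, Tcf7l2 and Lef1, of which Wnt11 was called. GC content was 70.0% for Axin2, 71.3% for Wnt11 and 66.0% for Sfrp2. Its median was 66.3% over the 39 windows of members and 52.7% over all 32851.

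Among the 10 ligands, Wnt11 fell and the others were not called. Wnt11, a ligand known mainly for the non-canonical branches, ran from 7.26 to 7.77 in controls (median 7.58) and from 6.93 to 7.20 in treated mice (median 7.10). Every treated mouse lay below every control. The group means were 7.55 ± 0.21 and 7.08 ± 0.098 (SD, n = 6 each), a log2 difference of -0.47 ± 0.086 (SE, limma adjusted p = 0.0038), or 1.38-fold lower. Its call held in all 12 fits that left out 1 array, between -0.52 and -0.42. It has a single probe set.

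Wnt5a, another ligand known chiefly for non-canonical signalling, ran from 8.19 to 8.50 in controls and from 8.10 to 8.31 in treated mice. Of the treated mice 1 lay below all controls. The groups overlapped, and the difference of -0.12 ± 0.064 did not pass (limma adjusted p = 0.30). All 4 of its probe sets lay below 0, from -0.18 to -0.024. Its close relative Wnt5b differed by 0.010 ± 0.062.

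Wnt10b, a canonical ligand known to block the formation of adipocytes, ran from 7.02 to 7.40 in controls and from 7.11 to 7.23 in treated mice. Its difference of 0.011 ± 0.063 had a 95% interval from -0.12 to 0.15. That leaves out a change as large as that of Wnt11 in the signal of this probe set. The probe set was dim, with group means of 7.17 and 7.18 below the lowest array median of 7.19, so the interval covers its signal only. Wnt10a (-0.032) and Wnt6 (-0.011), which also act on fat precursors, lay near 0. Wnt2 had the highest difference of the ligands, 0.15 ± 0.083 (limma adjusted p = 0.32), with 2 treated mice above all controls. Wnt9a, Wnt2b and Wnt4 differed by -0.048, 0.041 and 0.061. Of the 10 ligands, 8 had a mean below the array medians, so this class was read mostly from dim probe sets.

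**Figure D2:**
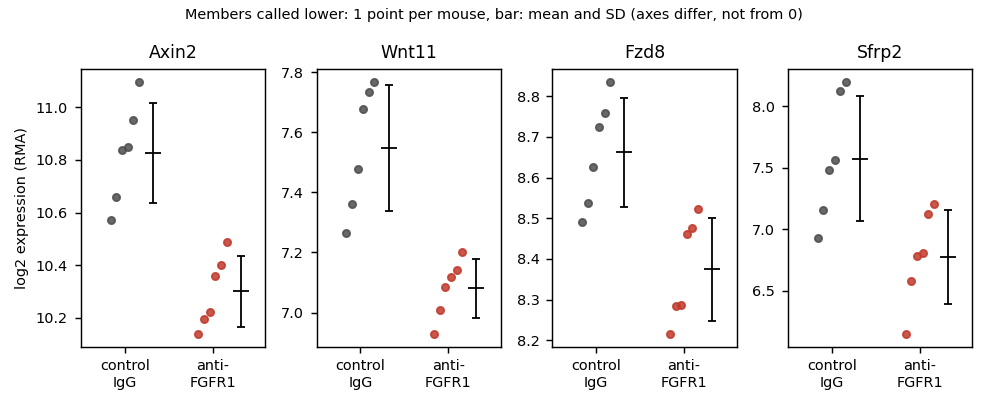
The log2 expression of Axin2, Wnt11, Fzd8 and Sfrp2 in every mouse (1 point each, 6 per group), with the group mean and SD beside the points; the vertical axes differ and do not start at 0. For Axin2 and Wnt11 the groups do not overlap, whereas for Fzd8 and Sfrp2 they do.

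Of the 8 Frizzled receptors and both Lrp co-receptors, Fzd8 fell. It ran from 8.49 to 8.84 in controls (median 8.68) and from 8.22 to 8.52 in treated mice (median 8.37). Of the treated mice 5 lay below all controls, and the remaining one overlapped the lowest control. The group means were 8.66 ± 0.13 and 8.37 ± 0.13 (SD, n = 6 each), a difference of -0.29 ± 0.071 (SE, limma adjusted p = 0.022), or 1.22-fold lower. Its dim second probe set differed by 0.014, and with the mean of both the call was lost (-0.14, limma adjusted p = 0.20). It was also lost after another quantile normalization (-0.26, limma adjusted p = 0.053), without control IgG replicate 3 (-0.27) and without anti-FGFR1 replicate 2 (-0.27) or 4 (-0.26). Fzd8 has no promoter entry.

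Fzd5 and Fzd6 lay below 0 without a call. Fzd5 ran from 7.01 to 7.63 in controls (median 7.31) and from 6.69 to 7.31 in treated mice (median 6.91), 4 of which lay below all controls. Its difference was -0.35 ± 0.12 (limma adjusted p = 0.082), and its other probe set differed by 0.047. Without control IgG replicate 5 (-0.41) or anti-FGFR1 replicate 4 (-0.42) Fzd5 was called. Fzd6, a receptor linked mainly to cell polarity, differed by -0.21 ± 0.083 (limma adjusted p = 0.14), with probe sets from -0.21 to 0.15, and was called without control IgG replicate 4 (-0.27).

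The other receptors were not called. Fzd4, a receptor for Wnts and for norrin in blood vessels, had group means of 11.95 ± 0.066 and 11.91 ± 0.12 (SD, n = 6 each) and a 95% interval of the difference from -0.16 to 0.081. Fzd1, Fzd2 and Fzd7 differed by 0.022, 0.031 and -0.0086. Fzd3 differed by 0.084, and all 6 of its probe sets lay above 0, from 0.045 to 0.23, without a call. The co-receptor Lrp6 differed by 0.13 ± 0.054, with a 95% interval from 0.015 to 0.24 and 4 treated mice above all controls, and did not pass (unadjusted p = 0.030, limma adjusted p = 0.16), while its dimmer probe set lay at -0.044. Lrp5 differed by -0.030 ± 0.071.

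Secreted inhibitors bind Wnt ligands outside the cell (the Sfrp family, Frzb and Wif1) or block the Lrp co-receptors (the Dkk family). Among the 8 listed, Sfrp2 fell, with the largest difference of the 44 members. It ran from 6.92 to 8.20 in controls (median 7.52) and from 6.15 to 7.20 in treated mice (median 6.79). The groups overlapped, with 4 of 6 treated mice below all controls, and control IgG replicates 3 and 6 were highest at 8.20 and 8.12. The group means were 7.57 ± 0.51 and 6.77 ± 0.38 (SD, n = 6 each), a difference of -0.80 ± 0.22 (SE, limma adjusted p = 0.037), or 1.74-fold lower. Its only probe set was dim, with a mean over both groups below the lowest array median of 7.19. That held for 4 of the 8 secreted inhibitors.

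The call of Sfrp2 was lost in 8 of the 12 fits that left out 1 array. These were the fits without control IgG replicate 3 (-0.68), 4 (-0.82), 5 (-0.80) or 6 (-0.69), and without anti-FGFR1 replicate 1 (-0.68), 2 (-0.81), 4 (-0.76) or 5 (-0.80). The difference stayed below 0 in all 12, between -0.93 and -0.68.

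Sfrp1, a secreted inhibitor expressed in adipose tissue, gave different answers on its 5 probe sets. On the brightest, 1438620_x_at, controls ran from 8.63 to 9.05 and treated mice from 8.66 to 9.07, a difference of 0.031 ± 0.079. The x in its name marks probes that may also bind other transcripts. On 3 others the groups did not overlap, and all 3 were called. On 1416594_at controls ran from 7.73 to 7.98 and treated mice from 7.45 to 7.70, a difference of -0.28 ± 0.057 (limma adjusted p = 0.010). On 1428136_at the ranges were 6.94 to 7.26 and 6.42 to 6.94, a difference of -0.40 ± 0.085 (limma adjusted p = 0.011). On 1460187_at they were 6.56 to 7.11 and 6.14 to 6.49, a difference of -0.49 ± 0.098 (limma adjusted p = 0.0077). These 3 calls held in all 14 alternative fits over probe sets. The fifth, 1448395_at, differed by -0.17 ± 0.083 and was not called. With the mean of its probe sets the gene was called at -0.26 (limma adjusted p = 0.0012), so whether Sfrp1 counts as lower depends on the probe set that stands for it.

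**Figure D3:**
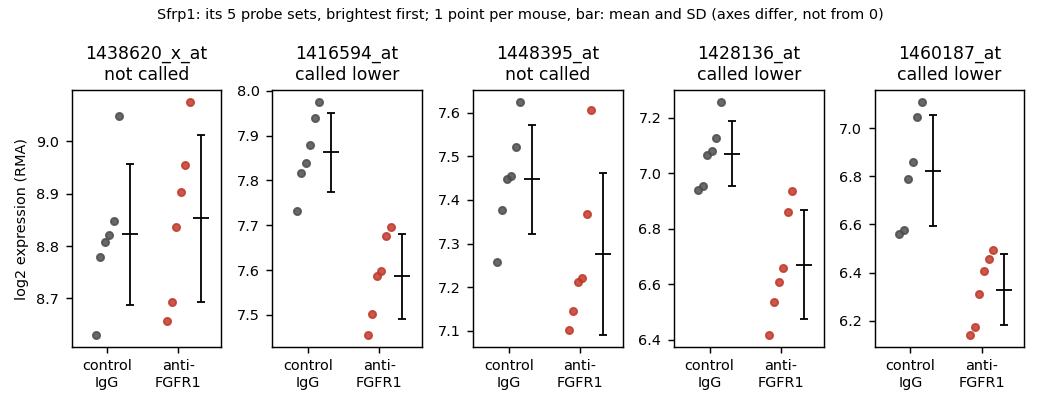
The log2 expression of Sfrp1 on each of its 5 probe sets, brightest first, in every mouse (1 point each, 6 per group), with the group mean and SD; the vertical axes differ and do not start at 0. The groups are apart on 1416594_at, 1428136_at and 1460187_at and mixed on 1438620_x_at.

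Sfrp4 and Sfrp5, Frizzled-related inhibitors made in fat, differed by -0.10 ± 0.078 and 0.035 ± 0.059, the second probe set of Sfrp5 lying at -0.17. Frzb, of the same family, differed by -0.0041 ± 0.068 and Wif1 by 0.022 ± 0.080, both read from dim probe sets. Dkk2 varied widely, from 5.33 to 6.36 in controls and from 5.001 to 6.22 in treated mice, and its difference of -0.30 ± 0.20 did not pass (limma adjusted p = 0.40). Dkk3, a divergent member of its family, differed by 0.068 ± 0.073. The R-spondins Rspo1 and Rspo3, secreted agonists that protect Frizzled receptors from removal, differed by -0.058 ± 0.10 and -0.065 ± 0.084.

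In the intracellular core 0 of 8 measured genes were called by limma, and 0 had an unadjusted p under 0.05. All 8 lay between -0.098 and 0.083. Beta-catenin itself, Ctnnb1, ran from 12.43 to 12.67 in controls and from 12.44 to 12.71 in treated mice, with a 95% interval of the difference from -0.048 to 0.19. In the destruction complex the scaffold Axin1 differed by -0.081 ± 0.042 (limma adjusted p = 0.27), with 4 of 6 treated mice below all controls. Apc differed by -0.035 ± 0.051 and the kinase Gsk3b by -0.081 ± 0.062.

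Gsk3b had 6 probe sets, from -0.21 to 0.12. On 1451020_at controls ran from 8.79 to 9.04 and treated mice from 8.54 to 8.79, 5 of them below all controls. That probe set was called lower (-0.21 ± 0.056, limma adjusted p = 0.042), a call that held in 3 of the 14 alternative fits. Dvl1, which relays the signal from Frizzled, differed by -0.098 ± 0.057. The transcription factors Tcf7l1, Tcf7l2 and Lef1, which carry beta-catenin to target genes, differed by 0.083 ± 0.051, 0.013 ± 0.053 and 0.049 ± 0.054, and the 4 probe sets of Tcf7l2 ran from -0.023 to 0.27.

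The 6 target and feedback genes did not move alike. Axin2, a direct target that limits the pathway by promoting destruction of beta-catenin, ran from 10.57 to 11.10 in controls (median 10.84) and from 10.14 to 10.49 in treated mice (median 10.29). All 6 treated mice lay below all controls. The group means were 10.83 ± 0.19 and 10.30 ± 0.14 (SD, n = 6 each), a difference of -0.53 ± 0.086 (SE, limma adjusted p = 0.0018), or 1.44-fold lower. Its second probe set separated the groups as well, from 6.84 to 7.53 in controls and from 6.34 to 6.66 in treated mice (-0.58 ± 0.11, limma adjusted p = 0.0057). The call of the gene held in all 12 fits that left out 1 array, between -0.58 and -0.47.

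The other 5 genes of this class lay above 0. By limma 0 of them were called, while 2 had an unadjusted p under 0.05, as did 22.4% of all genes. Znrf3 and Rnf43, ubiquitin ligases that remove Frizzled receptors from the cell surface, differed by 0.15 ± 0.061 (limma adjusted p = 0.17) and 0.057 ± 0.063. Znrf3 ran from 8.74 to 9.05 in controls and from 9.002 to 9.18 in treated mice, 4 of which lay above all controls. Lgr5, a receptor for R-spondins and itself a target, differed by 0.12 ± 0.053 (limma adjusted p = 0.20). Nkd1 and Nkd2, feedback inhibitors that act on Dishevelled, differed by 0.15 ± 0.077 and 0.10 ± 0.057, with probe sets of Nkd1 from -0.21 to 0.15. Over all classes, the groups did not overlap for 2 members, Axin2 and Wnt11, both lower. That is 4.55% of the members, beside 5.12% of all genes without overlap and 3.55% lower without overlap.

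**Figure D4:**
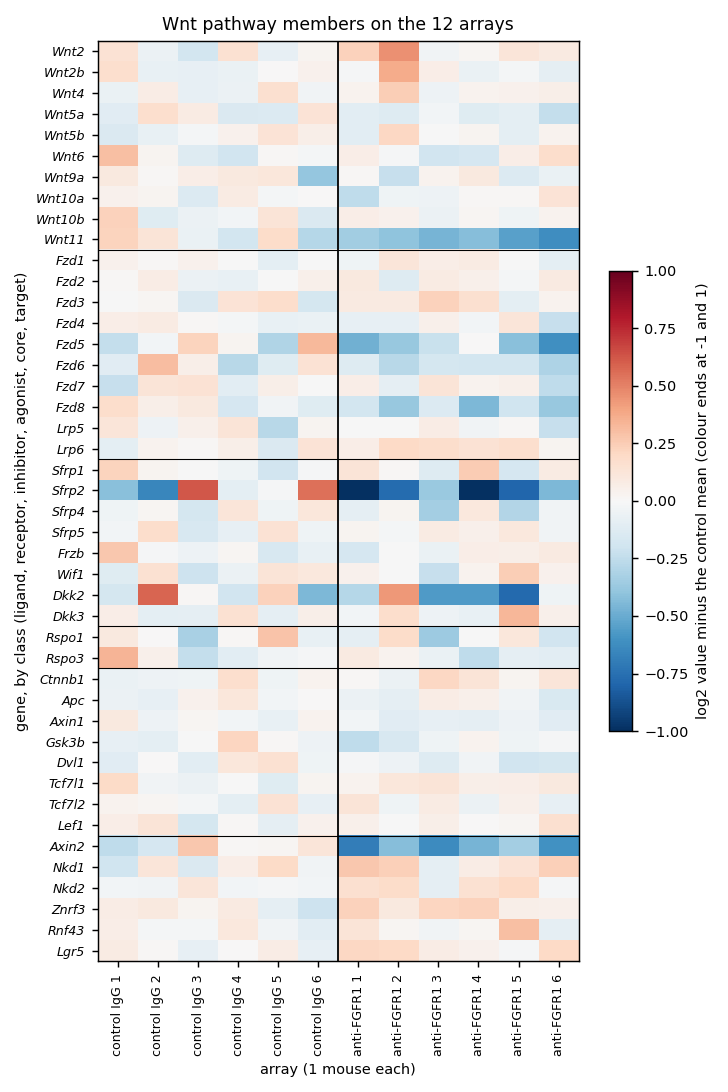
Each row is a measured member, in order of class, and each column 1 of the 12 arrays; the colour is the log2 value minus the gene's control mean, and the colour scale ends at -1 and 1. Axin2 and Wnt11 are lower in every anti-FGFR1 mouse, Sfrp2 varies among the controls too, and most other rows are pale in both groups.

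The rest of the pathway came from a list made by name and role. It was drawn up with earlier results of these data known, so nothing is read from its shares of calls. Of its 86 genes 85 were measured. Of these 9 fell and 1 rose by limma, 11.8% of the list, beside 8.03% of all genes called, 5.09% lower and 2.94% higher. With the mean of 14 endothelial markers in the model 0 of these 10 calls were left. Over all genes that model left 178 calls, beside 1461 without it. The endothelial mean separates the groups completely, so it and the treatment cannot be told apart. Ccnd1, cyclin D1, a cell cycle gene driven by beta-catenin and by growth factors, had group means of 10.87 ± 0.18 and 9.97 ± 0.26 (SD, n = 6 each) and fell by 0.90 (limma adjusted p = 0.00029), with all 6 treated mice below all controls. The other 14 target genes of the list were not called, among them Myc (-0.096), Sp5 (-0.028), Tnfrsf19 (-0.058), Ccn4 (0.054) and Id2 (-0.34, limma adjusted p = 0.060). Notum, a secreted enzyme that removes the lipid of Wnt ligands, and Apcdd1, a membrane-bound inhibitor, were at -0.13 and 0.16 and did not pass.

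Porcn, the enzyme that attaches that lipid, fell by 0.22 (limma adjusted p = 0.026), a call lost without control IgG replicate 2 (-0.21) and without anti-FGFR1 replicate 4 (-0.21) or 6 (-0.19). Lgr4, an R-spondin receptor related to Lgr5, fell by 0.27 (limma adjusted p = 0.013), a call that averaging its probe sets removed (-0.14), as did adjusting for the 3' to 5' ratio (-0.30, limma adjusted p = 0.052). Of 9 further ligands 0 were called by limma. Its unadjusted p was under 0.05 for 2, Wnt8b (0.29, limma adjusted p = 0.064) and Wnt16 (0.17, limma adjusted p = 0.20), beside 22.4% of all genes. The co-repressor Tle1, which holds TCF targets silent, fell by 0.31 (limma adjusted p = 0.0029) and the kinase Csnk1e by 0.21 (limma adjusted p = 0.0059), both without overlap of the groups. Averaging its probe sets took Csnk1e to -0.10 and ended its call (limma adjusted p = 0.095). Dact1, which binds Dishevelled, rose by 0.28 (limma adjusted p = 0.034), a call that held in 5 of the 12 fits that left out 1 array.

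In the polarity and calcium branches 4 of 18 genes fell and 0 rose (22.2% called, beside 8.03% of all genes called and 5.09% called lower). These genes too were chosen with earlier results known, so nothing is read from that share. Of the Camk2, Plcb and Nfatc families the list holds only Camk2d, Plcb4, Nfatc1 and Nfatc4. Nfatc1, a calcium-driven transcription factor, fell by 0.37 (limma adjusted p = 0.0036) and Plcb4, a phospholipase, by 0.36 (limma adjusted p = 0.0051). Daam2, which links Dishevelled to the cytoskeleton, fell by 0.22 (limma adjusted p = 0.027) and the kinase Camk2d by 0.23 (limma adjusted p = 0.036). Leaving out 1 array kept the call of Daam2 in 8 and that of Camk2d in 2 of 12 fits, and that of Nfatc1 and Plcb4 in all 12. With probe sets averaged, Daam2 (-0.10, limma adjusted p = 0.17) and Camk2d (-0.093, limma adjusted p = 0.15) were not called. Adjusting for the 3' to 5' ratio, a sign of RNA quality, ended the calls of Daam2 (-0.23, limma adjusted p = 0.10), Camk2d (-0.17, limma adjusted p = 0.30) and Nfatc1 (-0.27, limma adjusted p = 0.075).

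Several cell type measures moved with the treatment, and in bulk tissue fewer cells of a type and less RNA per cell cannot be told apart. The brown adipocyte list, which also holds Adipoq, Plin1 and Fabp4, genes shared with white fat, was high on all arrays. The mean of its 11 measured genes ran from 12.1 to 12.5 in controls and from 12.3 to 12.5 in treated mice. By limma 2 of these genes rose and 1 fell. Of 14 endothelial markers 8 fell and 0 rose, and among 10 smooth muscle and pericyte markers 6 fell and 0 rose. The endothelial mean ran from 9.67 to 9.93 in controls and from 9.42 to 9.66 in treated mice, and the smooth muscle mean from 9.62 to 9.79 and from 9.33 to 9.53. For both the groups did not overlap (two-sided exact permutation p = 0.0022, the smallest that 924 assignments allow). With the endothelial mean in the model 0 members were called: Axin2 stood at -0.19 ± 0.12, Sfrp2 at -0.27 ± 0.37, Wnt11 at -0.62 ± 0.15 and Fzd8 at -0.46 ± 0.12. That mean separates the groups completely, so it and the treatment cannot be told apart.

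Fibroblast and preadipocyte markers, of cells in which Sfrp2 is commonly found, did not move as one. Of 12 measured 3 rose, Pdgfra (0.62), Lum (0.76) and Col3a1 (0.42), and 2 fell, Pi16 (-0.50) and Dpt (-0.37). Their mean ran from 9.75 to 10.2 in controls and from 9.78 to 10.2 in treated mice (exact permutation p = 0.14), and the groups differed at 0.05 without control IgG replicate 6 (0.19, exact permutation p = 0.0325) or anti-FGFR1 replicate 1 (0.19, exact permutation p = 0.0411). With that mean in the model Sfrp2 (-1.10 ± 0.18), Axin2 (-0.62 ± 0.082) and Wnt11 (-0.37 ± 0.079) were called, Fzd8 was not (-0.26, limma adjusted p = 0.062), and Fzd5 (-0.45) and Znrf3 (0.22) were called in addition.

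Skeletal muscle, which lies next to the depot, varied from 9.43 to 11.6 in controls and from 6.78 to 11.4 in treated mice (exact permutation p = 0.55), and all 4 members kept their calls with its mean in the model. Leaving out both arrays lowest in these markers, 1 per group, ended the call of Sfrp2 (-0.69, limma adjusted p = 0.11) and kept the other 3. The log2 3' to 5' ratio of control probe sets, a sign of RNA quality, ran from 0.139 to 0.221 in controls and from 0.161 to 0.232 in treated mice (exact permutation p = 0.037), a difference that missed 0.05 in 9 of the 12 comparisons without 1 array. Adjusting for it kept the calls of Axin2 (-0.41 ± 0.10), Wnt11 (-0.57 ± 0.10) and Fzd8 (-0.40 ± 0.079), ended that of Sfrp2 (-0.58 ± 0.27) and called Rspo3 (-0.28 ± 0.061). The trend and robust form of limma's eBayes also ended the call of Sfrp2 (limma adjusted p = 0.078).

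The means of 4 immune marker lists lay above 0 after anti-FGFR1, and 3 of them had a p under 0.05. The mean of B cell markers differed by 0.17 (exact permutation p = 0.0043), that of T cells by 0.11 (exact permutation p = 0.022), that of granulocytes and mast cells by 0.10 (exact permutation p = 0.030) and that of macrophages by 0.26 (exact permutation p = 0.071). The 3 lists with a p under 0.05 were dim, with group means below the lowest array median of 7.19. Control and treated means were 6.74 and 6.92 for B cells and 6.53 and 6.64 for T cells. For granulocytes and mast cells they were 6.89 and 6.997. By limma 2 of 9 B cell genes rose and 0 fell, and 0 of 10 T cell genes were called. Of 11 granulocyte and mast cell genes 2 rose and 1 fell, and of 12 macrophage genes 2 rose and 0 fell. The granulocyte and mast cell mean missed 0.05 in 5 of the 12 comparisons without 1 array. The macrophage mean passed 0.05 after another quantile normalization (0.29, exact permutation p = 0.0368), without control IgG replicate 6 (0.35, exact permutation p = 0.0152) and without anti-FGFR1 replicate 1 (0.31, exact permutation p = 0.0498). After Benjamini-Hochberg adjustment over 13 array measures, endothelium, smooth muscle and B cells passed 0.05. The part of the smooth muscle and immune markers in the results was not tested. White fat (-0.015, exact permutation p = 0.80), nerve and Schwann cell (0.011, exact permutation p = 0.58), mesothelial (0.040, exact permutation p = 0.53) and brown adipocyte means (0.097, exact permutation p = 0.093) did not pass. The brown adipocyte mean passed after another quantile normalization (0.11, exact permutation p = 0.0303) and without control IgG replicate 5 (0.13, exact permutation p = 0.0108).

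**Figure D5:**
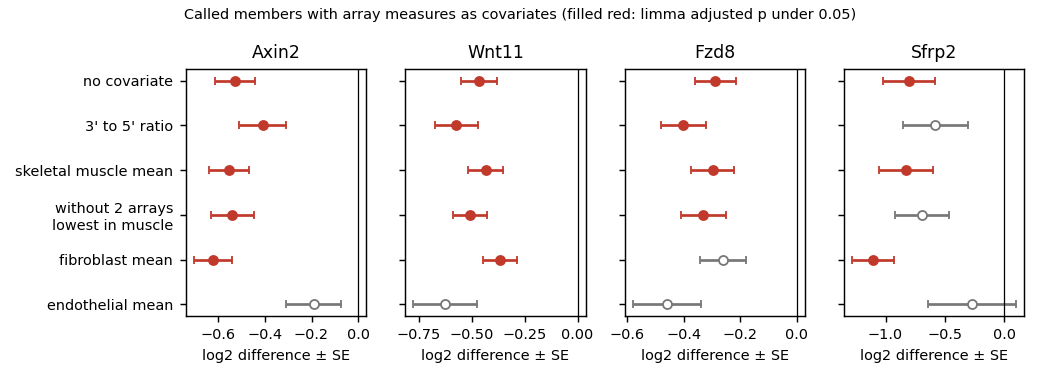
The log2 difference (horizontal axis, anti-FGFR1 minus control IgG, bars are SE) of Axin2, Wnt11, Fzd8 and Sfrp2 without a covariate, with the 3' to 5' ratio or the skeletal muscle, fibroblast or endothelial mean as a covariate, and without 2 arrays; filled red points have a limma adjusted p under 0.05. The points drawn lie below 0, and with the endothelial mean 0 of the 4 genes are called.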

How the data were processed

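Brown fat RNA of 12 mice was hybridised to one-colour Affymetrix arrays, each mouse to its own. The deposited values are log2 expression per probe set, made with RMA per the submitters' processing notes, which also name limma, without versions. No detection call is recorded, and precision is limited by having 6 arrays a group. Array medians ran from 7.19 to 7.23.

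Of 45101 probe sets, 34945 had a single gene in the platform's annotation, 932 several and 9211 no entry; 64 control probe sets were left out. Symbols were updated by Entrez identifier. Each gene (18193) was read from its brightest probe set by mean over the arrays. Differences were tested in R 4.3.3 with limma 3.58.1 (lmFit, eBayes, no covariates, Benjamini-Hochberg over all genes or all probe sets, threshold 0.05), tested on simulated data. Means of 12 marker lists and the 3' to 5' ratio were tested by exact two-sided permutation. Members and lists were chosen with earlier results of these data known. Called members are described per mouse, as are members of interest for their role or with discordant probe sets, named with their values in view; of the further pathway genes all called ones are named.

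Alternatives were another quantile normalization, median centring, the mean of a gene's probe sets, leaving out dim genes, the replicate number as a block, the 3' to 5' ratio, eBayes with trend and robust, and leaving out each array. Marker means in the model, and leaving out both arrays lowest in muscle markers, were chosen after seeing the data.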

Additional observations from a re-analysis of the deposited data

Results flagged for a closer look

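In 11 of 114 groups of 6 values, 1 array stood farther from the others than Dixon's 95% critical value allows, where chance alone gives about 5% of groups, or 5.7. Of these 7 were values of Wnt members, and limma called none of those 7 genes. Wnt2b was high in anti-FGFR1 replicate 2 (6.59, others 6.13 to 6.28). Wnt4 was high in anti-FGFR1 replicate 2 (6.92, others 6.63 to 6.73). Wnt9a was low in control IgG replicate 6 (5.77, others 6.16 to 6.27). Fzd1 was low in control IgG replicate 5 (9.93, others 10.02 to 10.06). Lrp5 was low in anti-FGFR1 replicate 6 (7.67, others 7.87 to 7.98). Gsk3b was high in control IgG replicate 4 (11.17, others 10.86 to 10.97). Nkd2 was high in control IgG replicate 3 (7.01, others 6.86 to 6.88). Of the array measures, 4 were marked. The granulocyte and mast cell mean was high in anti-FGFR1 replicate 2 (7.14, others 6.95 to 6.99). The skeletal muscle mean was low in anti-FGFR1 replicate 5 (6.78, others 10.2 to 11.4). The mesothelial mean was low in control IgG replicate 6 (6.21, others 6.41 to 6.53). The log2 3' to 5' ratio was high in control IgG replicate 1 (0.221, others 0.139 to 0.163).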

How the results depend on the processing

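Axin2 and Wnt11 lay below 0 in every alternative run on them and lost their calls only with the endothelial mean in the model. Of all genes called, 63.4% were lower, and after another quantile normalization 50.9% (4.18% of genes). Adjusting for the 3' to 5' ratio left 688 genes and 6 of the further pathway genes called, and leaving out both arrays lowest in muscle markers left 6 of the latter. The endothelial mean left 178 genes, 0 members and 0 further pathway genes. With dim genes left out 2 members were called, Axin2 and Fzd8, since Wnt11 and Sfrp2 were then not tested. Replicate numbers are not stated to pair the mice. The deviations of mice with the same number correlated from -0.29 to 0.33, over 0.1 in 3 of 6 pairs. For 3 controls the best match among treated mice had the same number, and a shared batch was not tested. With the replicate block 4 members were called. Axin2 stood at -0.53 (limma adjusted p = 0.0061) and Sfrp2 at -0.80 ± 0.11 (limma adjusted p = 0.0035). The limma adjusted p was 0.0038 for Wnt11 and 0.0091 for Fzd8. Of the named genes Dact1 lost its call. Leaving out 1 array gave 2 to 4 members, 7 to 12 further pathway genes, 1043 to 1698 genes and 6 to 9 probe sets of members; 2 members were called without control IgG replicate 3 or anti-FGFR1 replicate 2.

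No called gene changed sign. Uncalled values that did are given next, and the cause was not tested. After another quantile normalization this was Wnt5b at -0.011, Fzd7 at 0.033, Apc at 0.0029 and the mean of white fat at 0.0095. With the mean of a gene's probe sets this was Wnt5b at -0.024, Fzd1 at -0.0050, Fzd2 at -0.040, Fzd7 at 0.027, Sfrp1 at -0.26 (then called), Sfrp5 at -0.069, Ctnnb1 at -0.0062 and Nkd1 at -0.024. Adjusting for the 3' to 5' ratio this was Wnt2b at -0.10, Wnt10b at -0.056, Fzd1 at -0.0087, Fzd7 at 0.047, Apc at 0.0040, Gsk3b at 0.017 and Tcf7l2 at -0.032. With the skeletal muscle mean this was Wif1 at -0.0020. Without both arrays lowest in muscle markers this was Wnt10b at -0.0072, Wif1 at -0.00066, Tcf7l2 at -0.010 and Rnf43 at -0.012. With the endothelial mean this was Wnt5a at 0.0044, Wnt10b at -0.15, Fzd2 at -0.033, Fzd5 at 0.057, Fzd7 at 0.15, Sfrp1 at -0.12, Rspo1 at 0.042, Apc at 0.036, Tcf7l2 at -0.057, Lef1 at -0.049 and Lgr5 at -0.035. With the fibroblast mean this was Wnt5b at -0.027, Wnt6 at 0.021, Wnt9a at 0.068 and Frzb at 0.0011. Leaving out 1 array gave ranges across 0: -0.025 to 0.075 for Wnt2b, -0.030 to 0.038 for Wnt5b, -0.049 to 0.049 for Wnt6, -0.065 to 0.012 for Wnt10a, -0.018 to 0.057 for Wnt10b, -0.054 to 0.040 for Fzd7, -0.086 to 0.0096 for Lrp5, -0.014 to 0.076 for Sfrp1, -0.036 to 0.050 for Frzb, -0.022 to 0.072 for Wif1, -0.12 to 0.0024 for Rspo1, -0.11 to 0.0019 for Rspo3, -0.011 to 0.041 for Tcf7l2, -0.88 to 0.050 for the mean of skeletal muscle, -0.048 to 0.011 for the mean of white fat, -0.0014 to 0.019 for the mean of nerve and Schwann cell and -0.0036 to 0.064 for the mean of mesothelium.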
